A study of Saccharomyces cerevisiae with 9 samples.

Results

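In budding yeast (Saccharomyces cerevisiae), 10 genes of mitochondrial iron-sulfur cluster assembly were followed over 9 Affymetrix Yeast Genome S98 arrays. They are NFS1, ISU1, ISU2, YFH1, YAH1, GRX5, ISA1, ISA2, NFU1 and BOL3, taken by platform gene symbol, with the brightest probe set kept where a gene had several. These 10 genes are among 5656 that the arrays name through a probe set of 1 gene, and all 10 were bright enough to be among the 4537 genes tested. All samples carry chromosomal deletions of CTH1 and CTH2, whose products are mRNA-binding proteins, and differ in the pRS416 plasmid they received. The CTH2 group carried pRS416-CTH2, the CTH1 group carried pRS416-CTH1, and the vector group carried pRS416 with no insert, with 3 cultures and 3 arrays in each. Every culture was grown for about 6 hours at 30 °C to exponential phase, without uracil and with 100 µM of the iron chelator bathophenanthroline disulfonate (BPS), so all 3 groups were short of iron and no iron-replete culture enters a comparison. The labels do not say whether each replicate is a separate transformant, so p-values measure the spread between these cultures, which may be technical, and they do not name the promoter on the plasmids.

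Mitochondria build iron-sulfur clusters in steps. The cysteine desulfurase Nfs1 releases sulfur, frataxin (Yfh1) and the ferredoxin Yah1 assist with iron handling and electrons, and a new cluster forms on the scaffold proteins Isu1 and Isu2; these 5 genes are called early here. The glutaredoxin Grx5 then takes the cluster over, Isa1 and Isa2 help to make the larger clusters that aconitase and lipoate synthase need, and Nfu1 and Bol3 act late in handing clusters to such client proteins; these 5 are called late. Cth1 and Cth2 bind AU-rich elements in mRNA, and Cth2 in particular is known for promoting the decay of mRNAs of iron-using proteins when iron is scarce.

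The plasmid genes followed the labels. CTH2 (listed as TIS11) had a signal of 3389 to 4498 on the CTH2 arrays, 1.81 to 10.2 on the CTH1 arrays and 0.878 to 5.90 on the vector arrays. CTH1 had 1.54 to 14.3 on the CTH2 arrays, 231 to 592 on the CTH1 arrays and 0.583 to 1.21 on the vector arrays. Signals are the authors' MAS5 values, scaled so that each array has nearly the same mean without its extremes (500.4 to 500.6). Each array measured RNA of a whole culture, so fewer cells with an mRNA and less of it per cell cannot be told apart. Pearson correlations between arrays over the genes tested were 0.901 to 0.983. CTH1 replicate 3 stood apart in short mRNAs: the median deviation of the 406 genes of at most 400 nucleotides of coding length, minus that of the 3008 genes above 900, was -0.738 there and -0.047 to 0.295 on the other 8 arrays. The 10 assembly genes have coding lengths of 357 nucleotides (BOL3) to 1494 nucleotides (NFS1), in the RefSeq annotation of R64. Probe sets differ in how brightly they report, so levels are compared between groups for 1 gene and not between genes.

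In cells with CTH2, 9 of the 10 assembly genes had a lower mean log2 signal than in cells with the empty plasmid, where 40.9% of all 4537 genes tested did. The median difference was -0.64, against 0.07 over all genes tested. The late factors NFU1, BOL3, GRX5 and ISA1 and the early ferredoxin gene YAH1 had all 3 CTH2 arrays below all 3 vector arrays. None of the 10 passed limma's threshold of an adjusted p under 0.05 over all genes tested, which 0.287% of the genes passed (0.176% lower and 0.11% higher). At an unadjusted p under 0.05 from the same limma fit, 5 of the 10 were lower and 0 were higher, where 9.37% of all genes tested passed (4.3% lower and 5.07% higher). Arrays that lay wholly below the vector arrays were seen for 5 of the 10, against 6.99% of all genes tested. In cells with CTH1, 7 of the 10 had lower means than in vector cells, against 41.4% of all genes tested, and again none passed limma's adjusted threshold, which 0% of the genes passed. CTH1 itself was not among the genes tested, because it was too dim on average over the 9 arrays.

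**Figure D1:**
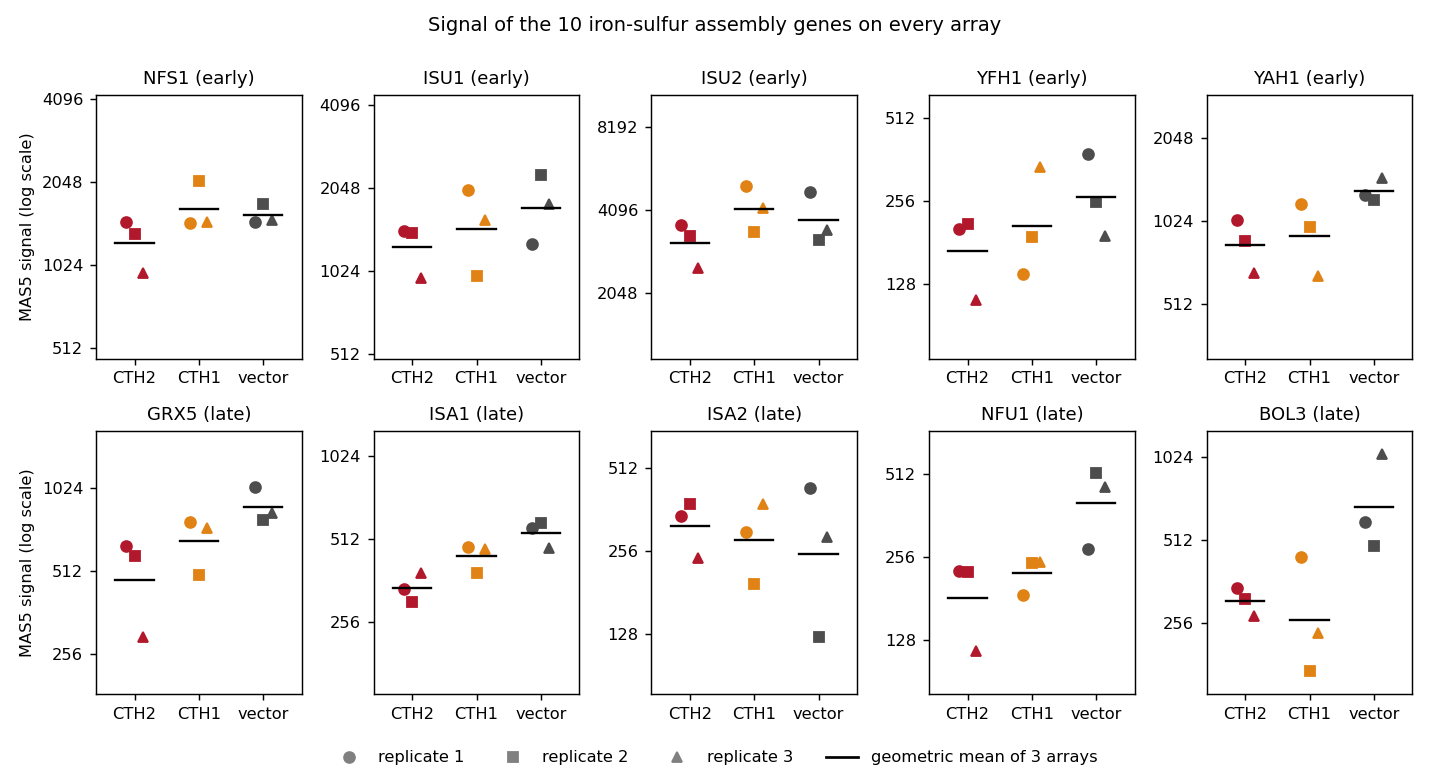
MAS5 signal (log axis) of the 10 assembly genes on every array, with the early genes in the top row and the late genes in the bottom row; symbols mark the replicate and bars the geometric mean of the 3 arrays. The CTH2 arrays lie wholly below the vector arrays for YAH1, GRX5, ISA1, NFU1 and BOL3, and CTH2 replicate 3 is the lowest of the 9 arrays for 6 of the 10 genes.

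Among the early genes, NFS1 had signals of 1465, 1325 and 959.5 on the 3 CTH2 arrays, 1456, 2071 and 1468 on the CTH1 arrays, and 1464, 1708 and 1491 on the vector arrays. The CTH2 and vector arrays meet at the level of CTH2 replicate 1, and the CTH1 arrays overlap both groups. The log2 difference between CTH2 and vector was -0.33 (SE 0.22, 95% interval -0.81 to 0.14, limma adjusted p = 0.675), and that between CTH1 and vector was 0.08 (95% interval -0.40 to 0.56). Without CTH2 replicate 3 the CTH2 value was -0.15, and the CTH1 value ran from -0.085 to 0.17 with single arrays left out. The difference between CTH2 and CTH1 was -0.42 (95% interval -0.90 to 0.06, limma adjusted p = 0.717).

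The scaffold genes ISU1 and ISU2 are paralogs, and their probe sets carry no suffix for shared sequence. ISU1 had signals of 1439, 1414 and 966.2 on the CTH2 arrays, 2016, 982.9 and 1571 on the CTH1 arrays, and 1293, 2283 and 1799.5 on the vector arrays, with all 3 groups overlapping. ISU2 had 3634, 3305 and 2537 on the CTH2 arrays, 5022, 3409 and 4183 on the CTH1 arrays, and 4795, 3212 and 3485 on the vector arrays, also with overlap. Against vector, the CTH2 group differed by -0.48 for ISU1 (SE 0.29, 95% interval -1.11 to 0.16, limma adjusted p = 0.64) and by -0.27 for ISU2 (SE 0.23, 95% interval -0.76 to 0.22, limma adjusted p = 0.768). The CTH1 group differed from vector by -0.26 for ISU1 (95% interval -0.89 to 0.38) and 0.14 for ISU2 (95% interval -0.35 to 0.63). With single arrays left out, the CTH2 value of ISU1 ran from -0.69 (without vector replicate 1) to -0.28 (without vector replicate 2) and was -0.29 without CTH2 replicate 3. That of ISU2 was -0.099 without vector replicate 1 and -0.12 without CTH2 replicate 3. The CTH1 values ran from -0.49 to 0.028 for ISU1 and from 0.0015 to 0.31 for ISU2.

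The frataxin gene YFH1 had scattered signals, with 203, 210.3 and 112 on the CTH2 arrays, 139, 189 and 339.9 on the CTH1 arrays, and 379, 253 and 190.4 on the vector arrays. The groups overlap, and the SD of its log2 signal within groups was 0.56, against a median of 0.30 over all genes tested. Its difference between CTH2 and vector was -0.64 (SE 0.37, 95% interval -1.44 to 0.15, limma adjusted p = 0.611), and that between CTH1 and vector was -0.34 (95% interval -1.14 to 0.45). The CTH2 value was -0.35 without CTH2 replicate 3 and -0.38 without vector replicate 1. The CTH1 value ran from -0.70 (without CTH1 replicate 3) to -0.056 (without CTH1 replicate 1).

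YAH1, which encodes the ferredoxin, was the early gene whose groups separated. It had signals of 1028, 862 and 663 on the CTH2 arrays, 1180.1, 969 and 643 on the CTH1 arrays, and 1264, 1212 and 1466 on the vector arrays. Every array with either plasmid gene lay below every vector array, while the CTH2 and CTH1 arrays overlapped each other. The differences from vector were -0.64 with CTH2 (SE 0.25, 95% interval -1.19 to -0.10, unadjusted p = 0.0236, limma adjusted p = 0.469) and -0.54 with CTH1 (SE 0.25, 95% interval -1.08 to 0.01, unadjusted p = 0.0522, limma adjusted p = 0.717). These 2 comparisons use the same vector arrays. Between CTH2 and CTH1 the difference was -0.11 (95% interval -0.65 to 0.43). Without CTH1 replicate 3, the lowest array for YAH1, the difference between CTH1 and vector was -0.29.

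NFU1 and BOL3 had the most negative differences between CTH2 and vector of the late genes, with nearly equal values. Their order turned without vector replicate 2, without CTH2 replicate 3, with array weights and with log2(signal + 16). NFU1 signals were 227, 225 and 116 on the CTH2 arrays, 185, 243 and 246 on the CTH1 arrays, and 273, 513 and 459 on the vector arrays. All CTH2 and CTH1 arrays lay below the lowest vector array. The log2 signal averaged 7.50 ± 0.56 in CTH2 cells, 7.80 ± 0.23 in CTH1 cells and 8.65 ± 0.49 in vector cells (SD, n = 3 each). This gave a difference of -1.15 for CTH2 (SE 0.31, 95% interval -1.82 to -0.47, limma adjusted p = 0.186), a CTH2 to vector ratio of 0.452, and of -0.85 for CTH1 (SE 0.31, 95% interval -1.52 to -0.17, limma adjusted p = 0.652). The difference between CTH2 and CTH1 was -0.30 (95% interval -0.98 to 0.38).

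BOL3, whose product acts beside Nfu1, had signals of 343, 312 and 269.9 on the CTH2 arrays, 443, 172 and 236 on the CTH1 arrays, and 596, 485 and 1048 on the vector arrays. Every array with either plasmid gene was below every vector array, and the lowest of all was CTH1 replicate 2. On the log2 scale it averaged 8.26 ± 0.17 in CTH2 cells, 8.03 ± 0.70 in CTH1 cells and 9.39 ± 0.57 in vector cells (SD, n = 3 each). BOL3 differed from vector by -1.13 with CTH2 (SE 0.35, 95% interval -1.89 to -0.37, limma adjusted p = 0.244) and by -1.36 with CTH1 (SE 0.35, 95% interval -2.12 to -0.60, limma adjusted p = 0.588). The unadjusted p was 0.00683 and 0.002 in those comparisons. The CTH1 difference was -1.74 without CTH1 replicate 1, -1.06 without CTH1 replicate 2 and -1.28 without CTH1 replicate 3, the array low in short mRNAs. With arrays corrected for coding length it was -1.20. Without vector replicate 3, the brightest array, the differences were -0.81 for CTH2 and -1.04 for CTH1. CTH2 and CTH1 cells differed by 0.23 (95% interval -0.53 to 0.99).

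The glutaredoxin gene GRX5 had signals of 631, 578 and 294 on the CTH2 arrays, 772, 496 and 734 on the CTH1 arrays, and 1029, 785 and 831 on the vector arrays. The vector arrays were the highest and did not overlap either of the other groups, which overlapped each other. The difference from vector was -0.88 with CTH2 (SE 0.29, 95% interval -1.52 to -0.25, limma adjusted p = 0.317) and -0.42 with CTH1 (SE 0.29, 95% interval -1.05 to 0.22, limma adjusted p = 0.812). A dimmer probe set assigned to GRX5 had signals of 9.55 to 47.0 on the 9 arrays, at or near the floor of 43.2 applied before the log2 step, and averaging it in gave -0.46 for CTH2. Without CTH2 replicate 3 the CTH2 difference was -0.54, and without CTH1 replicate 2 the CTH1 difference was -0.22.

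ISA1 had the smallest spread within groups of the 10 genes, with an SD of 0.17 on the log2 scale. Its signals were 336, 303 and 383.7 on the CTH2 arrays, 478, 384.2 and 471 on the CTH1 arrays, and 560.3, 584 and 475 on the vector arrays. With CTH2 every array was lower than any vector array and lower than any CTH1 array, although CTH2 replicate 3 and CTH1 replicate 2 nearly coincide, whereas CTH1 and vector overlapped.  ISA1 differed between CTH2 and vector by -0.66 (SE 0.20, 95% interval -1.10 to -0.23, unadjusted p = 0.00596, limma adjusted p = 0.227) and between CTH2 and CTH1 by -0.38 (95% interval -0.82 to 0.05, limma adjusted p = 0.716). The difference between CTH1 and vector was -0.28 (95% interval -0.72 to 0.15), and -0.18 without CTH1 replicate 2.

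ISA2, the partner of ISA1, did not share this pattern. It had signals of 343, 381 and 242 on the CTH2 arrays, 301, 196 and 379 on the CTH1 arrays, and 435, 125 and 288 on the vector arrays. Vector holds both the highest and the lowest array, and the groups overlap throughout. The difference between CTH2 and vector was 0.34 (SE 0.40, 95% interval -0.53 to 1.21, limma adjusted p = 0.822), and without vector replicate 2, the lowest array, it was -0.16. Between CTH1 and vector it was 0.17 (95% interval -0.70 to 1.04). The correlation of ISA2 with ISA1 over the 9 arrays was -0.27, a description only.

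**Figure D2:**
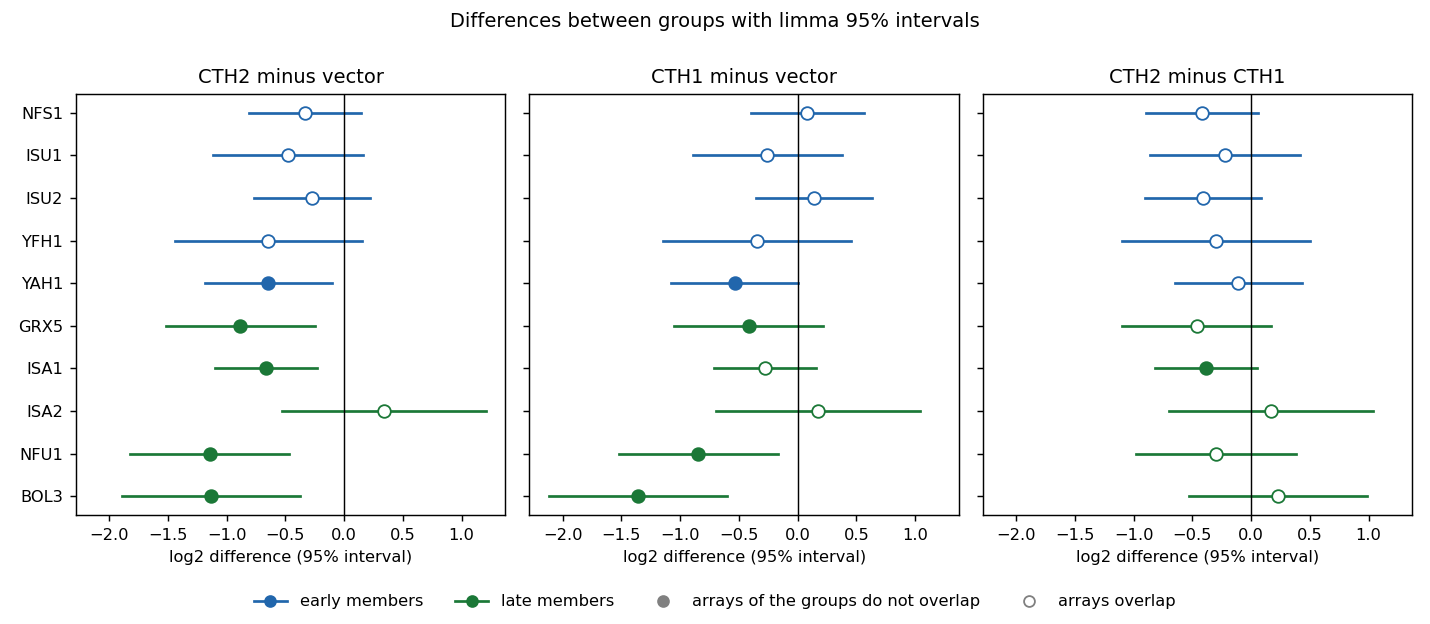
Differences in log2 signal of the 10 genes in the 3 comparisons, with limma 95% intervals; filled symbols mark genes whose arrays do not overlap between the groups. The CTH2 minus vector intervals of YAH1, GRX5, ISA1, NFU1 and BOL3 lie below 0, those of NFU1 and BOL3 also do for CTH1 minus vector, and all 10 intervals of CTH2 minus CTH1 cross 0.

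One CTH2 array weighed on this comparison. On CTH2 replicate 3 all 10 genes were below their own mean over the 9 arrays, against 46.3% of all genes tested. There 6 of them (NFS1, ISU1, ISU2, YFH1, GRX5 and NFU1) had their lowest value, whereas 10.8% of all genes tested had theirs on that array. Below their own mean were also 7 of the 10 on CTH2 replicate 1, 8 on CTH2 replicate 2 and 9 on CTH1 replicate 2. The number was 3 on CTH1 replicates 1 and 3, and 1 or 2 on the vector arrays. The median deviation of the 10 genes was -0.60 on CTH2 replicate 3, -0.04 on CTH2 replicate 1 and -0.16 on CTH2 replicate 2, and that of all genes tested was between 0.03 and 0.06 on these 3 arrays. Without CTH2 replicate 3 the median difference from vector was -0.41 in place of -0.64, and 3 genes in place of 5 were lower at an unadjusted p under 0.05. Those 3 were ISA1 (-0.75, unadjusted p = 0.00622), NFU1 (-0.83, unadjusted p = 0.0159) and BOL3 (-1.04, unadjusted p = 0.0228). YAH1 (-0.48, unadjusted p = 0.101) and GRX5 (-0.54, unadjusted p = 0.0551) no longer reached that level, and 9 of the 10 differences were still below 0. The share of all genes at that level was not computed without CTH2 replicate 3. That array also read short mRNAs higher than long ones by 0.295, the highest such value of the 9 arrays, and with arrays corrected for coding length 5 genes were again lower. YAH1 also had an unadjusted p of 0.0767 without vector replicate 3.

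Between CTH1 and vector, 4 of the 10 genes (YAH1, GRX5, NFU1 and BOL3) had all CTH1 arrays below all vector arrays, against 3.37% of all genes tested. At an unadjusted p under 0.05, 2 of the 10 (NFU1 and BOL3) were lower and 0 higher, against 6.92% of all genes tested (3.06% lower and 3.86% higher). The median difference was -0.31, against 0.06 over all genes tested, of which limma called 0 (0%) at an adjusted p under 0.05 and 314 at an unadjusted p under 0.05. The median became -0.20 without CTH1 replicate 2. Without vector replicate 2 or vector replicate 3 the count of 2 became 1, since NFU1 then had an unadjusted p of 0.0838 or 0.0655. Without CTH1 replicate 1, NFU1 (unadjusted p = 0.0691) gave way to YAH1 (-0.73, unadjusted p = 0.018). The share of all genes at that level was not computed with single arrays left out.

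Set directly against CTH1, CTH2 gave lower means for 8 of the 10 genes, with BOL3 and ISA2 the exceptions, against 48.5% of all genes tested, and a median difference of -0.30, against 0.01 over all genes tested. None of the 10 passed limma's test, either adjusted (0.022% of all genes passed, which is 1 gene, CTH2 itself as TIS11, and 0% were lower) or at an unadjusted p under 0.05, where 7.49% of all genes passed (3.55% lower and 3.95% higher). CTH1, being dim on most arrays, was not among the genes tested. CTH2 arrays lay wholly below the CTH1 arrays for 1 of the 10, ISA1, a share near the 7.19% of all genes tested. Without CTH1 replicate 2 the count of lower genes at an unadjusted p under 0.05 was 3 (ISU2, GRX5 and ISA1) in place of 0. The share of all genes at that level was not computed without that array. Without CTH2 replicate 3 the median difference was -0.02. For 6 of the 10 genes (ISU1, YFH1, YAH1, GRX5, ISA1 and NFU1) the order of the group means was CTH2 lowest, CTH1 between and vector highest. Neighbours in that order overlapped in their arrays except between CTH2 and CTH1 for ISA1, and between CTH1 and vector for YAH1, GRX5 and NFU1.

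Early and late steps were then compared. Between CTH2 and vector, 1 of 5 early genes and 4 of 5 late genes were lower at an unadjusted p under 0.05. The share of all genes tested was 4.3%. Median differences were -0.48 for the early and -0.88 for the late genes. Without CTH2 replicate 3, the early gene YAH1 (limma unadjusted p = 0.101) and the late gene GRX5 (limma unadjusted p = 0.0551) no longer passed. That left the late genes ISA1, NFU1 and BOL3. Between CTH1 and vector, 0 of 5 early and 2 of 5 late genes were lower at an unadjusted p under 0.05, against 3.06% of all genes tested. Their medians were -0.26 for the early and -0.42 for the late genes. Between CTH2 and CTH1 the medians were alike, -0.30 for both. No p is given for a score over the members, because they were chosen with results of these data known. The mean deviation of the early genes minus that of the late genes was 0.07, 0.03 and -0.02 on the CTH2 arrays, 0.05, 0.38 and 0.07 on the CTH1 arrays, and -0.21, 0.06 and -0.44 on the vector arrays. Vector replicate 2 thus lay among the CTH2 arrays and above CTH1 replicate 1, so the groups overlap in this measure. On vector replicate 2 the late mean took in ISA2 at -1.17, whereas GRX5, ISA1, NFU1 and BOL3 stood at 0.28 to 1.02. The measure was not computed without ISA2. The early mean exceeded the late mean by 0.22 in the difference between CTH2 and vector, and by 0.36 between CTH1 and vector, where the SD of the per-array measure within groups was 0.18 and reached 0.25 in the vector group. The value of 0.22 became 0.10 without vector replicate 3 and 0.35 without vector replicate 2. It became 0.14 with probe sets averaged, which changed GRX5 by taking in its dim probe set at or near the floor. That of 0.36 became 0.24 without vector replicate 3 and 0.49 without vector replicate 2.

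**Figure D3:**
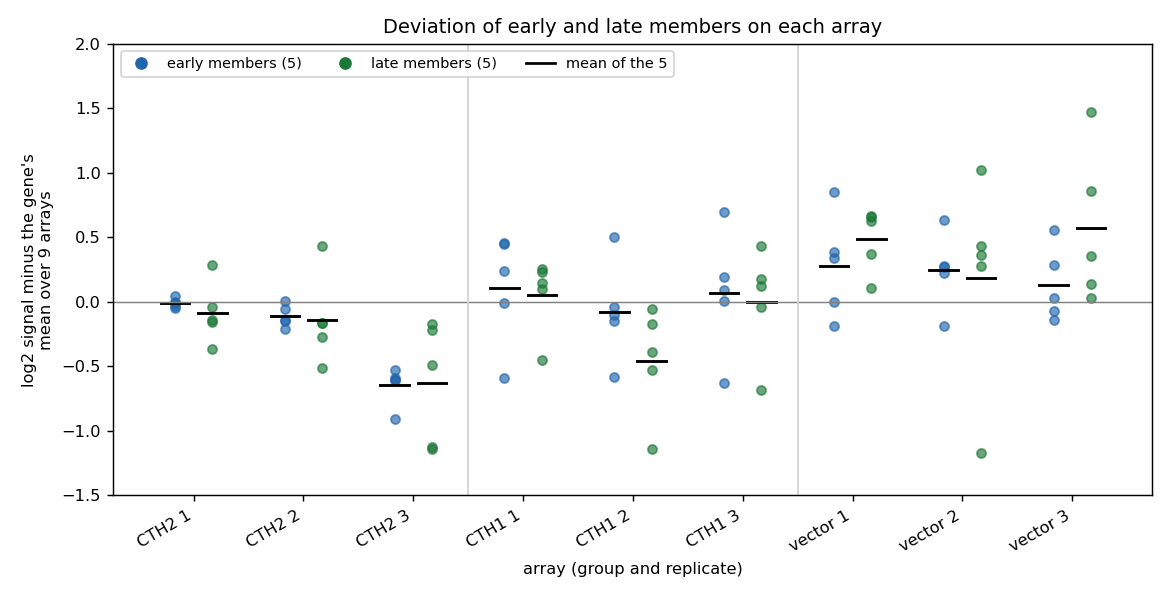
Deviation of each of the 10 genes from its own mean over the 9 arrays (log2), by array, with early genes left and late genes right of each position and bars at the mean of 5. The bars of CTH2 replicate 3 lie at -0.65 and -0.63, and the late bars stand above the early ones on vector replicates 1 and 3 but not on vector replicate 2.

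The other genes of the pathway gave a mixed picture. Of 14 listed partners inside the mitochondrion, 13 were on the arrays with a probe set of their own and 11 were bright enough to test. SSQ1 and IBA57 were not. None of the 11 passed limma's adjusted threshold in any comparison, and at an unadjusted p under 0.05 1 was lower and 0 higher with CTH2 against vector, a share near that of all genes tested (4.3% lower and 5.07% higher). That one was MRS4, a mitochondrial iron carrier, with signals of 829, 819 and 663 on the CTH2 arrays, 1407, 975 and 1160.1 on the CTH1 arrays and 1227, 1313 and 1634 on the vector arrays. The CTH2 arrays were below both other groups, and MRS4 differed from vector by -0.85 (SE 0.21, limma adjusted p = 0.135). The acyl carrier protein gene ACP1 (-0.40), the chaperone co-factor gene MGE1 (0.35) and ARH1 (0.29), which encodes the reductase that feeds electrons to Yah1, were the other extremes. With CTH1 against vector 1 partner was lower at an unadjusted p under 0.05, ACP1 (-0.57), and 0 were higher. Of all genes tested, 3.06% were lower and 3.86% higher at that level. ACP1 had signals of 1864, 1833 and 947 on the CTH1 arrays and 2048, 2502 and 2051 on the vector arrays. Its low CTH1 value thus came mostly from CTH1 replicate 3, the array low in short mRNAs. The median of the 11 partners was -0.08 with CTH2 and 0.05 with CTH1, against -0.64 and -0.31 for the 10 assembly genes.

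In the cytosol, where a separate machinery finishes iron-sulfur proteins, 11 of 12 listed genes were tested, and none passed limma's adjusted threshold. Their median was 0.15 with CTH2 against vector and 0.15 with CTH1 against vector, and 8 of 11 had values above 0 in each. Most genes tested were above 0 as well, 2680 of 4537 with CTH2 and 2659 with CTH1, with medians of 0.07 and 0.06. At an unadjusted p under 0.05 with CTH2, 1 was lower and 0 higher, again near the share of all genes tested. That gene was GRX4, which encodes a cytosolic glutaredoxin of iron sensing, at -0.60 (SE 0.24, limma adjusted p = 0.481). TAH18 (-0.33), MET18 (0.35) and NBP35 (0.41), a scaffold gene of the cytosolic machinery, did not pass at either level with CTH2. With CTH1, 0 were lower and 1 was higher at an unadjusted p under 0.05, the adaptor gene MET18 (0.61, limma adjusted p = 0.712). At that level 3.06% of all genes tested were lower with CTH1 and 3.86% higher.

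The mRNAs of mitochondrial proteins that receive the clusters had lower values with either plasmid gene. All 8 tested genes of the 9 listed clients had CTH2 arrays wholly below the vector arrays and values below 0, where 6.99% of all genes tested lay wholly below and 40.9% had values below 0. The 8 genes had a median of -0.93 with CTH2 and -0.70 with CTH1. Limma called 2 of them lower with CTH2 against vector, SDH2 (-1.57, SE 0.26) and ACO1 (-1.49, SE 0.25), each with an adjusted p = 0.028, and 0 higher. SDH2 encodes the iron-sulfur subunit of succinate dehydrogenase, and its signals were 699, 612 and 429.6 on the CTH2 arrays, 812, 639 and 709 on the CTH1 arrays and 1177, 1903 and 2132 on the vector arrays. ACO1 encodes aconitase, and its signals were 2367, 2271 and 2862 on the CTH2 arrays, 3693, 4860.4 and 4738 on the CTH1 arrays and 6384, 10371 and 5155 on the vector arrays. The vector arrays were the highest for both genes. Both calls depended on single arrays and on the settings. Without CTH2 replicate 1, 2 or 3 or vector replicate 2 or 3, the limma adjusted p was 0.108 to 0.157 for SDH2 and 0.0762 to 0.151 for ACO1, which also stood at 0.055 without vector replicate 1. With all arrays and unchanged differences, the limma adjusted p of both was 0.107 with the replicate block and 0.0648 with the floor at the 25th percentile, and without the filter on dim genes it was 0.116 for SDH2 and 0.125 for ACO1. BIO2, the biotin synthase gene (-0.39), and LYS4, the homoaconitase gene (-0.81), were the least negative 2. With CTH1 against vector limma called 0 of the 8. At an unadjusted p under 0.05, 6 were lower, against 3.06% of all genes tested, and 5 had CTH1 arrays wholly below the vector arrays, against 3.37%. The assembly genes lay between the clients and the partners in their medians, and the difference between these lists was not tested.

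**Figure D4:**
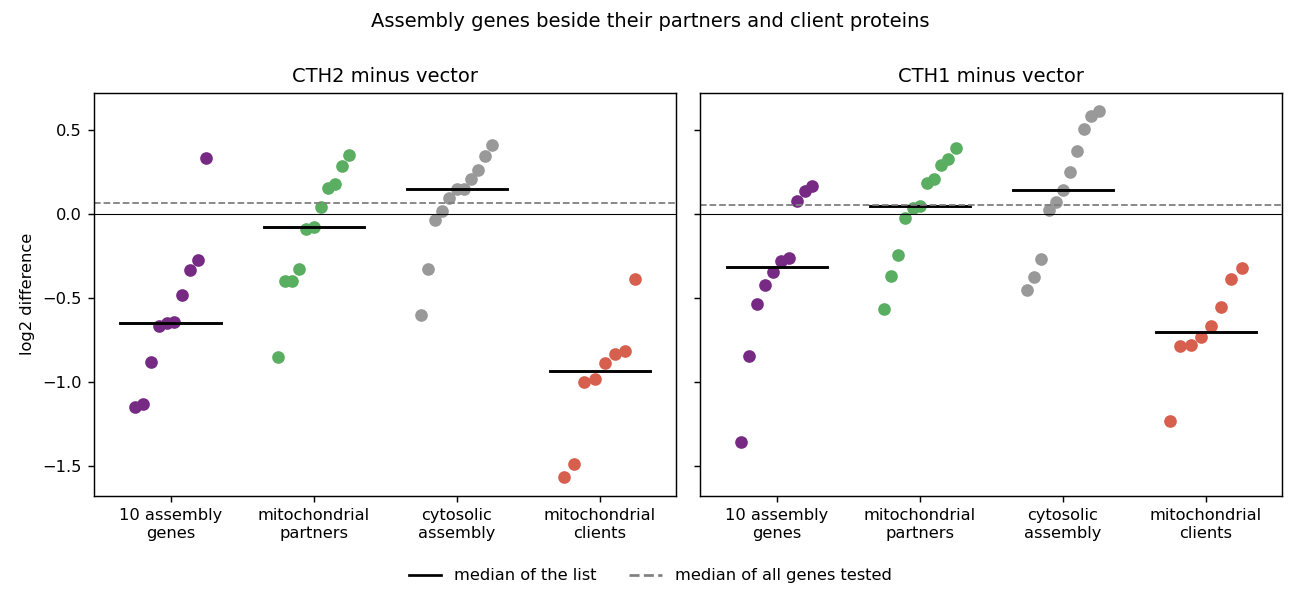
Differences in log2 signal from vector of the genes tested in 4 lists, with CTH2 left and CTH1 right; bars mark each list's median and the dashed line the median of all genes tested. With CTH2 the medians are -0.64 for the 10 assembly genes, -0.08 for partners in the mitochondrion, 0.15 for cytosolic assembly and -0.93 for mitochondrial clients.

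The patterns of the 10 genes over the arrays were also set against each other. Over the 45 pairs, Pearson's r across the 9 arrays had a median of 0.45 and ran from -0.35 (ISA2 with NFU1) to 0.78 (YAH1 with BOL3), and it was below 0 for 6 pairs. Group differences and the level of each array enter these values, so they are descriptions without a p. Pairs of other genes were not taken as a reference. The SD within groups was above the median of all genes tested for 7 of the 10. By the same measure, the gene most like each member in pattern was sought among the other 4536 genes tested. GRX5 was closest to LEU1 (r = 0.97), which encodes an iron-sulfur enzyme of leucine synthesis, with 2599, 2100 and 1168 on the CTH2 arrays, 2762, 2253 and 3179 on the CTH1 arrays and 4233, 3183 and 3009.9 on the vector arrays. CTH2 replicate 3 was the lowest array for LEU1 as it was for GRX5. NFU1 was closest to MRPS8 (r = 0.98) and BOL3 to MRPL20 (r = 0.94), both genes of the mitochondrial ribosome. ISU2 was closest to the citrate synthase gene CIT1 (r = 0.92), YFH1 to HEM13 (r = 0.94) of heme synthesis, and ISA1 to the sphingolipid hydroxylase gene SCS7 (r = 0.94). The closest genes of the rest were ULP1 for NFS1 (r = 0.94), MSL5 for ISU1 (r = 0.97), PXR1 for YAH1 (r = 0.96) and CUB1 for ISA2 (r = 0.95). With 9 arrays and 4536 candidates, values of this size are found for every one of the 10 genes, from 0.92 to 0.98.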

How the data were processed

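The authors deposited linear MAS5 signal intensity values for the probe sets of 9 arrays, per the submitters' processing notes; version, detection calls and genome build are not given in the sources used here. Of 9335 probe sets, 6504 had 1 gene in the platform annotation and were named through the RefSeq annotation of R64. Signals below the 10th percentile (43.2) were raised to it before the log2 transformation. The brightest probe set of a gene was kept, and genes whose mean log2 signal lay above that of the 25th percentile (98.4) were tested. All 9 arrays entered 1 linear model without covariates in limma 3.58.1 under R 4.3.3 (lmFit, then eBayes with trend), with Benjamini-Hochberg adjustment over the 4537 genes tested per comparison; intervals are 95% intervals of that model. The model was also run on simulated data with independent noise for each gene and array. Such data lack shifts that many genes of an array share. The number of arrays limits the precision; an exact test of 3 against 3 cannot give a p under 0.1 and was not used. The 10 genes, the lists and the named genes (all members, called list genes, the 2 lowest and 2 highest of each list with CTH2, and the closest gene in pattern) were chosen with earlier results of these data known. Alternatives changed scaling, floor, filter, probe sets, fit, the replicate block, coding length and single arrays.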

Additional observations from a re-analysis of the deposited data

How the results depend on the processing

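None of the 10 genes reached a limma adjusted p under 0.05 in any comparison under any of 21 alternatives; the lowest, 0.0544, was that of ISA1 between CTH2 and vector. The count of members lower with CTH2 than with vector at an unadjusted p under 0.05, 5 as reported, ran from 3 to 6 with single arrays left out and from 4 (probe sets averaged, with the dim GRX5 probe set taken in) to 6 under the other alternatives. Between CTH1 and vector that count, 2 as reported, ran from 1 to 3 with single arrays left out. Between CTH2 and CTH1, 0 as reported, it was 1 with arrays scaled to a common median, without the filter on dim genes or with the coding-length correction, 2 with array weights, and 0 to 3 with single arrays left out. The share of all genes at that level was not computed under the alternatives. These counts therefore cannot be read as changes of the members alone. The sign of a member's difference changed in 17 of 627 values, none of them called. With array weights these were NFS1 (-0.027) and ISU1 (0.031) between CTH1 and vector, and YFH1 (0.15), NFU1 (0.045) and BOL3 (-0.15) between CTH2 and CTH1. The others arose with single arrays left out, over which ISA2 ran from -0.16 to 0.74 for CTH2 against vector. For CTH1 against vector NFS1 ran from -0.085 to 0.17, ISU1 from -0.49 to 0.028 and ISA2 from -0.33 to 0.57. For CTH2 against CTH1 ISU1 ran from -0.51 to 0.012, YFH1 from -0.59 to 0.055, YAH1 from -0.35 to 0.085, ISA2 from -0.10 to 0.38, NFU1 from -0.46 to 0.020 and BOL3 from -0.076 to 0.61. The cause was not tested. Over all alternatives the differences between CTH2 and vector ran from -1.42 to -0.83 for NFU1, -1.37 to -0.81 for BOL3, -1.09 to -0.46 for GRX5, -0.79 to -0.58 for ISA1 and -0.79 to -0.48 for YAH1. The -0.46 of GRX5 came from averaging in its dim probe set at or near the floor. Scaling to a common median shifted the median of all genes between CTH2 and vector by -0.12, and 9 of the 10 members lay below that median under each scaling. Of all genes tested, limma called 8 lower and 5 higher between CTH2 and vector, 14 and 5 after median scaling and 6 and 6 after quantile normalization, and 1 to 75 in all over the alternatives. In a check of the named list genes added after seeing the data, SDH2 was called in 13 and ACO1 in 12 of the 21 alternatives, and MRS4 in 1. Deviations of same-numbered cultures from their group means had correlations of -0.58 to 0.21. These values cannot decide whether the numbers pair the samples, because differently numbered cultures were not compared. With the replicate block the count between CTH2 and vector was again 5, and 1 gene in all was called in place of 13.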
